A study of Mus musculus with 6 samples.

Results

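Interferon-inducible genes were examined in healing flexor digitorum longus (FDL) tendons, with the families of large GTPases kept apart from the other interferon targets. The 39 genes were chosen by symbol from the 53819 listed in the count tables, because *Gbp10*, a guanylate-binding protein gene, fell in depleted tendons, so the values that chose them come from the same DTR against WT contrast that is described here. They hold 18 GTPase genes (10 guanylate-binding proteins, 6 immunity-related GTPases and 2 Mx proteins) and 21 other genes (14 antiviral and related genes, 4 transcription factors and 3 genes of peptide processing). edgeR's filter on low counts kept 38 of the 39 among 17496 genes tested. The gene it left out was *Gbp11*, with 10, 1 and 0 raw counts in WT and 0, 3 and 8 in DTR.

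Bulk RNA-seq was carried out on 3 DTR mice (Scx-Cre+; DTR F/+) and 3 WT littermates (Scx-Cre-; DTR F/+), aged 10 to 12 weeks at surgery and of both sexes, with 1 tendon per library. Every mouse carried the floxed diphtheria toxin receptor allele, had its FDL tendon cut and repaired, and received 5 daily injections of 100 ng diphtheria toxin (DT) from day 14 to day 18. Tendons were harvested at D28 post-surgery, although the titles of the samples date the 28 days to the depletion. The Scx-Cre driver is not inducible by tamoxifen, so in DTR mice the receptor marks every cell that has ever expressed Scleraxis and its descendants. Totals per library lay between 42744138 and 48854310 counts, replicates differed well beyond counting noise, and n = 3 animals per group limits the precision. The spread below is therefore that between animals. In bulk tissue, fewer cells of a type and less RNA per cell cannot be told apart.

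Interferons are secreted cytokines that bind receptors on the cell surface, which activate JAK kinases and STAT transcription factors. Type I interferons act mainly through interferon-stimulated response elements in the promoters of their targets, and interferon gamma through gamma-activated sites. Among the genes induced, guanylate-binding proteins (GBPs) and immunity-related GTPases (IRGs) assemble on vacuoles and membranes that hold pathogens, Mx proteins block viral replication, and IFIT, OAS, ISG15 and viperin act on viral RNA, proteins or membranes. In tendon, as in other tissues, both resident cells and macrophages can respond to interferon.

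A first view of the genes is given by their promoters. RefSeq promoters (GRCm38.p6, 250 bases before to 50 bases after a start) matched 27 of the 39 symbols through 31 promoters. The genes without one were *Gbp4*, *Gbp6*, *Gbp8*, *Gbp9*, *Gbp10*, *Gbp11*, *Ifi27*, *Iigp1*, *Mx1*, *Mx2*, *Oas2* and *Usp18*. A core of the interferon-stimulated response element, GAAA followed by any 2 bases and again GAAA, was searched on both strands with overlapping matches counted. It was found in 16 of 31 promoters (51.6%), against 3.44% of all 32851 RefSeq promoters of the same length. Among the GTPase genes 9 of 10 promoters held it, and among the other genes 7 of 21 (33.3%). TTCNNNGAA, the palindromic gamma-activated site, was found in 12 of 31 promoters (38.7%), against 8.3% of all promoters. A match describes the letters in the window and does not show a bound site.

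A set of 5 promoters is shown as the 250 bases before the start, 5′ to 3′ on the gene's strand, because they span the GTPase and antiviral genes whose values are described below. Capitals mark matches to either motif on either strand. They lie at chr3:142620413-142620662 (+) for *Gbp2*, chr3:142496684-142496933 (+) for *Gbp5*, chr11:58214727-58214976 (+) for *Irgm2*, chr4:156200819-156201068 (-) for *Isg15* and chr19:34640639-34640888 (+) for *Ifit1*.
Gbp2: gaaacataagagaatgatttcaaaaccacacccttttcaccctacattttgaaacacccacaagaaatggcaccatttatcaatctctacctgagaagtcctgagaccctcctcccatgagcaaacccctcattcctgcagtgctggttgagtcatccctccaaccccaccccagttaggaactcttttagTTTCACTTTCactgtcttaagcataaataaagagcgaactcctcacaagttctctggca
Gbp5: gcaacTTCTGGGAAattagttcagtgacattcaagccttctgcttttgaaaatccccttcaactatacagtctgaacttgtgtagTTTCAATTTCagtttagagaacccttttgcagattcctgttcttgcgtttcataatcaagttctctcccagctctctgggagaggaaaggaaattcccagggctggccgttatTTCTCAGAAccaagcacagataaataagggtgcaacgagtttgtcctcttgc
Irgm2: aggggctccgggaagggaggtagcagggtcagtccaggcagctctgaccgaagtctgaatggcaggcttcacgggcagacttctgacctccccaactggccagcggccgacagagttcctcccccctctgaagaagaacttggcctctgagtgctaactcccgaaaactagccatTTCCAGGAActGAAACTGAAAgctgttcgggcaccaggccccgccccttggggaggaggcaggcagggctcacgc
Isg15: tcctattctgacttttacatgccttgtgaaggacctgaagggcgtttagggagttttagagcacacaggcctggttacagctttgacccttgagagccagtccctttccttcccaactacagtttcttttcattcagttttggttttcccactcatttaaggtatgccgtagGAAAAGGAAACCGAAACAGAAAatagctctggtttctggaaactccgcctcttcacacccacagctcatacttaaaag
Ifit1: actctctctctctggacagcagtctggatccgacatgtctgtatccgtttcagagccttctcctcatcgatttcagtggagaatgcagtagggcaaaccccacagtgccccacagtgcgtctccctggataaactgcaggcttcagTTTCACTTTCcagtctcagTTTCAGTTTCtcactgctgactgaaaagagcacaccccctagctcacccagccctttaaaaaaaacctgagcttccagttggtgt
*Gbp2* held 1 response element core and no gamma-activated site, *Gbp5* held 1 core and 2 gamma-activated sites, and *Irgm2* held 1 of each. *Isg15* held 3 overlapping cores in 1 run, and *Ifit1* held 2 separate cores.

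One WT library stood apart in these genes and touches each result below. In WT replicate 1, 35 of the 38 tested genes were higher than in the other WT libraries, as were 34.8% of all tested genes. This library was also the highest of all 6 for 28 of the 38 genes, against 17.6% of all tested genes. The 39 genes summed to 1120, 690.6 and 681.1 CPM (counts scaled to the library total) in the WT libraries, in order of replicate number, and to 898.6, 750.7 and 972.9 in the DTR libraries. Averaged over the tested genes without *Gbp10*, the log2 level relative to the WT group was 0.60, -0.28 and -0.32 in WT and 0.31, -0.07 and 0.30 in DTR. All 3 DTR libraries lay between the extremes of WT. The ratio of the highest to the lowest WT library had a median of 1.76 over the 37 of these genes that averaged at least 50 normalized counts, against 1.20 over the 14409 tested genes above that level.

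**Figure D1:**
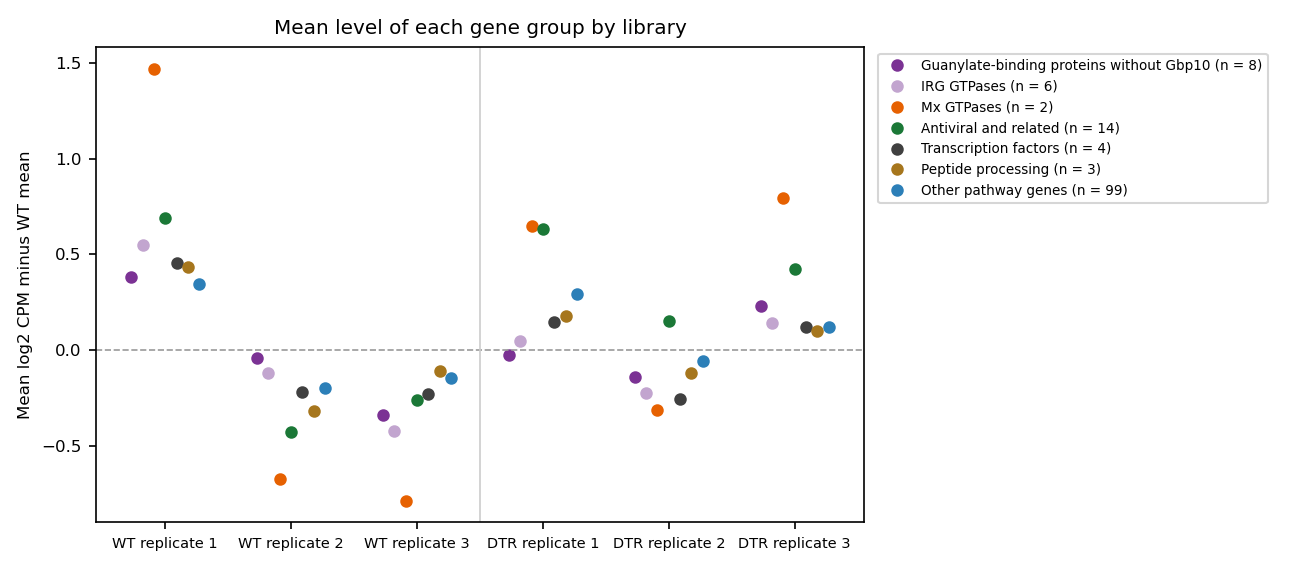
Mean log2 CPM of each gene group, relative to the mean of the 3 WT libraries (y axis), in each library (x axis), with 1 point per group and the number of genes in the legend. WT replicate 1 has the highest point of every member group among the WT libraries, and the 2 Mx genes spread most, from 1.47 in WT replicate 1 to -0.79 in WT replicate 3.

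Summed marker levels of other cells were read beside this spread. The T and NK cell list (15 genes, 14 tested, none at 0 in all libraries) summed to 40.5, 22.1 and 18.7 CPM in WT and to 34.0, 20.98 and 25.3 in DTR, with its highest value in WT replicate 1 as well. The macrophage list (12 of 12 genes tested) summed to 4625, 3781 and 4439 CPM in WT and to 4230, 4477 and 4095 in DTR, and the dendritic cell list (6 of 6 tested) to 54.8, 31.4 and 37.5 against 39.4, 27.2 and 34.6. Neutrophil markers (5 genes, 3 tested) reached 230.8 CPM in DTR replicate 1 and lay between 18.3 and 44.5 in the other libraries. The tendon list (8 of 8 tested, 2 fitted lower in DTR), which checks the tissue, summed to 22450, 25760 and 27120 CPM in WT and to 32190, 26710 and 31640 in DTR. *Scx* had 2169, 2871 and 2948 raw counts in WT and 3373, 3562 and 3437 in DTR, so its transcript was not lower in DTR at harvest. The part of any of these cells in the interferon values was not tested.

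Across the 38 tested genes, 26 were fitted higher and 12 lower in DTR, with a median log2 fold change of 0.08, where the median of all tested genes was 0.01 and 48.5% of them were fitted lower. edgeR's quasi-likelihood test with Benjamini-Hochberg adjustment called 0 of the 38, as it called 0% of all tested genes in either direction. At an unadjusted p under 0.05 it took 1 gene lower and 0 higher, where the shares over all genes were 5.45% and 5.52%. DESeq2 called 1 gene lower (1.53% of all genes) and 0 higher (1.12%), and limma-voom called 0 (0%). The 1 gene in each case was *Gbp10*, for which the set was chosen, so nothing is read from these counts. *Gbp10* was also the 1 gene in which every DTR library lay below every WT library (7.85% of all tested genes). No gene lay above in every DTR library (8.96%), and in 24 of the 38 all DTR libraries lay inside the WT range (13.7%). The 95% interval of the fold change lay within a doubling in either direction for 21 of the 38, and for the others larger changes lie inside it.

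**Figure D2:**
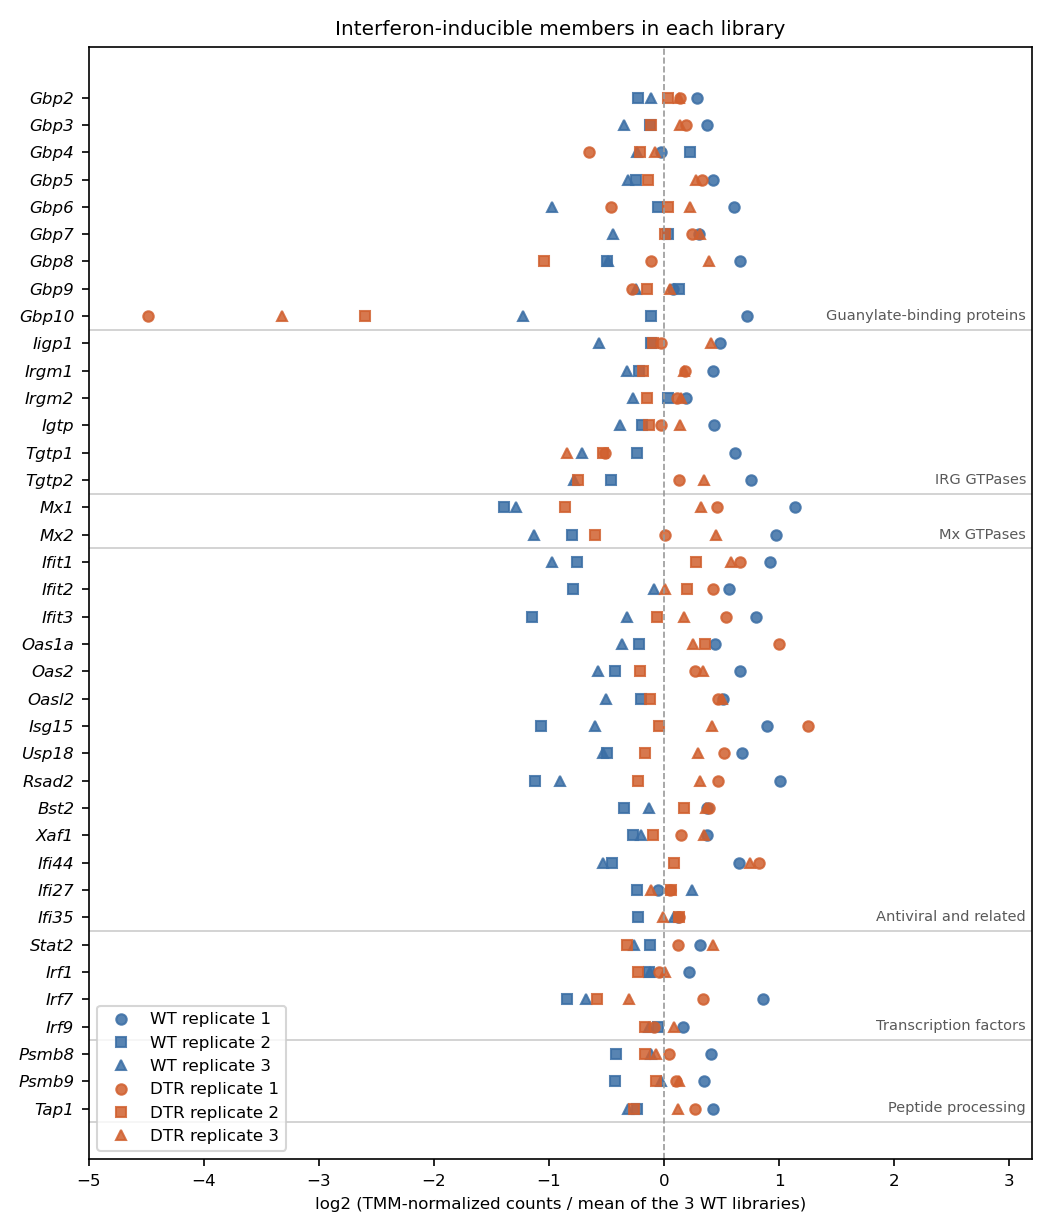
TMM-normalized counts of the 38 tested genes in each library, as log2 of the ratio to the mean of the 3 WT libraries (x axis), with genes grouped by role (y axis), blue for WT and orange for DTR, and 1 symbol per replicate number. *Gbp10* is the gene whose DTR points all lie left of its WT points, and WT replicate 1 (blue circles) is the rightmost point for 28 of the 38 genes.

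GBPs are large GTPases that coat pathogen vacuoles and help to activate inflammasomes. *Gbp10* had 152, 85.7 and 39.5 normalized counts in the WT tendons, in order of replicate number, and 4.12, 15.3 and 9.25 in the DTR tendons. The groups did not overlap, and the lowest WT library stood above the highest DTR library. The means were 92.5 ± 56.7 in WT and 9.56 ± 5.60 in DTR (SD, n = 3 each), a log2 fold change of -3.25 (SE 0.64, 95% interval -4.75 to -1.76), or 9.52-fold lower. The adjusted p of *Gbp10* depended on the tool, with 0.274 in edgeR, 0.293 in limma-voom and 4.19e-05 in DESeq2. In edgeR without the filter on low counts it was 0.0503. The gene was chosen for its fall in this same contrast, so none of these values is independent of that choice. Raw counts were 150, 91 and 38 in WT and 4, 16 and 9 in DTR, so this is a gene of low counts. By their *Xist* and *Ddx3y* counts, WT replicate 2 and DTR replicates 2 and 3 came from females and the other libraries from males, and with 1 female in WT and 1 male in DTR the sexes were not compared.

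*Gbp6* is the neighbour and near copy of *Gbp10*. In the RefSeq gene order (GRCm38.p6) the chromosome 5 cluster runs *Gbp8*, *Gbp9*, *Gbp4*, *Gbp10*, *Gbp6*, *Gbp11*. Coding sequences from GENCODE vM21 were 98.4% identical between *Gbp6* and *Gbp10*, with 30 of 1833 bases different and a longest identical run of 421 bases. Of all 50-base words in *Gbp10* transcripts, 84.1% also occurred in another gene, 73.3% in *Gbp6*. Of those of *Gbp6*, 70.7% occurred in another gene, most often (65.0%) in *Gm43302*, a gene model described below. Within the coding sequence, only stretches that differ tell the reads of the pair apart. The 120 coding bases where the pair differ most are shown, with capitals at the 12 bases that differ. They are coding bases 1526 to 1645 in exon 10 of 11 in both genes, on the minus strand of GRCm38 at chr5:105274192-105274311 for *Gbp6* and chr5:105218392-105218511 for *Gbp10*.
Gbp6: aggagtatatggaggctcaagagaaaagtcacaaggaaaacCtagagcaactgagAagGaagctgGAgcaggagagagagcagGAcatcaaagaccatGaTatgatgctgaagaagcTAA
Gbp10: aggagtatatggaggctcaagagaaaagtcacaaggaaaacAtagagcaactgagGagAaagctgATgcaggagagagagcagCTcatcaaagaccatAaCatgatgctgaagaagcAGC
The build and annotation that the authors counted on, and how reads matching more than 1 gene were counted, are not given in the sources used here. In GENCODE vM21 a further gene model, *Gm43302*, covers 46.3% of the exon bases of *Gbp10* and 29.0% of those of *Gbp6* on the same strand, and the deposited table lists it at 0 in every library. The split of counts between *Gbp6* and *Gbp10* is therefore uncertain.

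In *Gbp6* itself no such gap was seen. It had 134, 84.8 and 44.7 normalized counts in the WT tendons and 63.9, 89.9 and 103 in DTR, with overlapping groups and a log2 fold change of -0.04 (SE 0.41, 95% interval -0.995 to 0.92). *Gbp10* made up 53.2%, 50.3% and 46.9% of the summed *Gbp6* and *Gbp10* counts in WT replicates 1 to 3, with 95% Wilson intervals of 47.4 to 58.9%, 43.1 to 57.5% and 36.4 to 57.7%. In DTR replicates 1 to 3 the share was 6.06% (2.38 to 14.6%), 14.5% (9.16 to 22.3%) and 8.26% (4.40 to 15.0%). Both copies were thus counted at about equal levels in every WT library, whatever their level, while *Gbp6* counts outnumbered those of *Gbp10* in every DTR library. The intervals cover counting error only. The shares are built from the same *Gbp10* counts for whose fall the set was chosen, so they add no separate evidence of that fall. When the counts of the pair were summed, the groups overlapped, with 286, 170 and 84.2 normalized counts in the WT tendons and 68.0, 105 and 112 in DTR. The log2 fold change of the sum was -0.92 (SE 0.44, 95% interval -1.96 to 0.12).

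**Figure D3:**
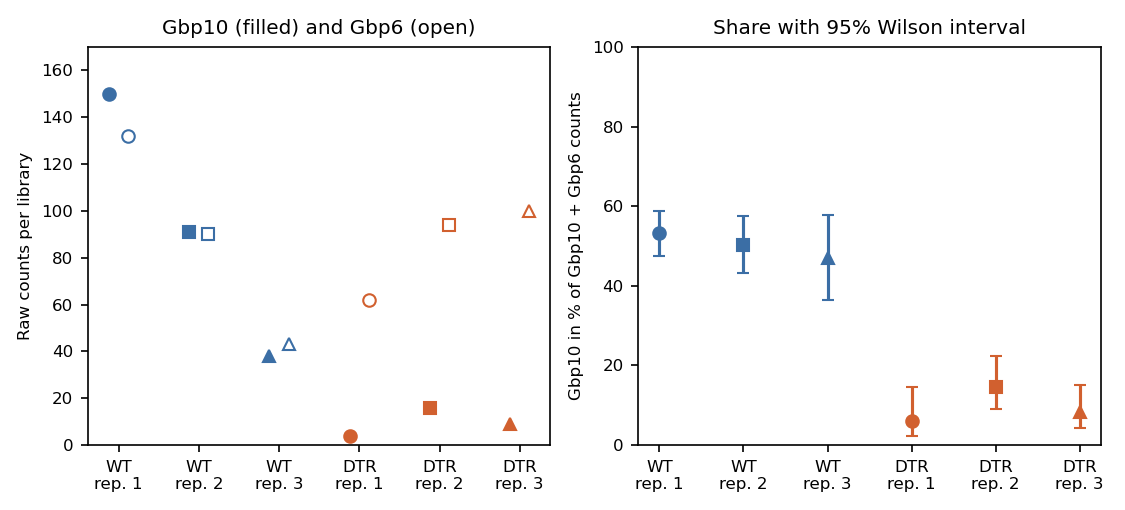
Raw counts of *Gbp10* (filled) and *Gbp6* (open) in each library (left, y axis from 0), and *Gbp10* in percent of the summed counts of the pair with 95% Wilson intervals (right). The WT shares lie between 46.9% and 53.2% and the DTR shares between 6.06% and 14.5%. They are built from the counts of *Gbp10*, the gene for whose fall the set was chosen.

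Muscle and skin transcripts also differed between the libraries. The skeletal muscle list (13 of 13 genes tested) summed to 21740, 19170 and 15530 CPM in WT and to 2590, 19000 and 4941 in DTR, and the keratinocyte list (10 of 10 tested) to 3213, 2018 and 90.8 in WT and to 37.1, 61.8 and 333 in DTR. The muscle list and *Gbp10* had the same order of libraries within WT and within DTR, and the keratinocyte list had that order within WT but not within DTR. The tendon list had the reverse order within both groups. In DTR replicate 2 muscle transcript lay within the WT range, at 19000 CPM, while *Gbp10*, at 15.3 normalized counts, lay below every WT library. DTR replicates 1 and 3 lay below every WT library in muscle transcript, and DTR replicate 1, the lowest in *Gbp10*, was the lowest in both lists. With the muscle level as a covariate the log2 fold change of *Gbp10* was -2.27 (edgeR adjusted p = 0.704). It had moved from -3.25 by more than the spread between replicates. Muscle level and genotype were partly tied in these libraries, so this fit cannot separate them. The part of muscle or skin in the *Gbp10* values was not tested.

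The other GBP genes of chromosome 5 overlapped between the groups. *Gbp4* had 1092, 1299 and 946 normalized counts in the WT tendons and 709, 965 and 1053 in DTR, a log2 fold change of -0.29 (SE 0.18, 95% interval -0.70 to 0.12), with its lowest value in DTR replicate 1. For *Gbp9* the counts were 1476, 1523 and 1181 in WT and 1149, 1256 and 1448 in DTR (log2 fold change -0.12, SE 0.13). *Gbp8*, at 96.4, 43.3 and 43.7 in WT and 56.7, 29.7 and 80.2 in DTR, was scarce and had a log2 fold change of -0.14 (SE 0.47). In none of these 3 did the groups separate, and all 3 share over 90% of their aligned coding bases with it (90.6% for *Gbp4* and *Gbp9* and 91.7% for *Gbp8*).

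In the GBP genes whose promoters lie on chromosome 3 the groups overlapped as well. *Gbp2*, the most abundant GBP gene per kilobase, had 2437, 1708 and 1841 normalized counts in the WT tendons and 2203, 2040 and 2182 in DTR, a log2 fold change of 0.10 (SE 0.14, 95% interval -0.22 to 0.42). *Gbp3* gave 1463, 1040 and 891 against 1290, 1049 and 1249 (0.08, SE 0.19). *Gbp5*, which promotes assembly of the NLRP3 inflammasome, gave 519, 326 and 311 against 485, 349 and 468 (0.17, SE 0.24). *Gbp7* had 1315, 1092 and 783 in WT and 1257, 1069 and 1324 in DTR (0.19, SE 0.19). In *Gbp2*, *Gbp3* and *Gbp5* the DTR libraries all lay within the WT range, and the 95% intervals of all 4 genes excluded a doubling in either direction. *Gbp10* accounted for 1.75%, 1.19% and 0.65% of all GBP counts in WT and for 0.06%, 0.22% and 0.12% in DTR, so it was a small part of the family total in both groups.

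IRGs are smaller GTPases that attack pathogen vacuoles, and the IRGM members regulate the others. *Iigp1* (Irga6) had 2173, 1435 and 1047 normalized counts in the WT tendons and 1521, 1457 and 2055 in DTR (log2 fold change 0.11, SE 0.29). *Irgm1* gave 2325, 1492 and 1386 in WT and 1970, 1528 and 1958 in DTR (0.07, SE 0.22), and *Irgm2* 1564, 1406 and 1140 against 1478, 1240 and 1522 (0.04, SE 0.14). *Igtp* (Irgm3) had equal means, with 844, 548 and 480 in WT and 614, 570 and 686 in DTR (0.00, SE 0.21). In these 4 genes WT replicate 1 was the highest library, WT replicate 3 the lowest, and every DTR library lay between them.

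*Tgtp1* and *Tgtp2* are a second near-identical pair, with 4 of 1245 coding bases different (99.7% identity) and 81.2% and 86.6% of their 50-base words shared with another gene. *Tgtp2* had 182, 78.2 and 62.4 normalized counts in the WT tendons and 118, 64.1 and 137 in DTR (log2 fold change -0.02, SE 0.47). *Tgtp1*, with a mean below 50 normalized counts, was fitted at -0.62 (SE 0.40), the lowest fold change after that of *Gbp10*. The ratio of *Tgtp1* to *Tgtp2* was 0.37, 0.48 and 0.43 in WT and 0.26, 0.48 and 0.18 in DTR, so the groups overlapped in it, and the same doubt about shared reads applies. Summed, the pair had a log2 fold change of -0.17 (SE 0.42).

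Mx proteins are dynamin-like GTPases that block viral ribonucleoproteins, and both genes are transcribed pseudogenes in the RefSeq reference strain. *Mx1* had 1811, 313 and 336 normalized counts in the WT tendons and 1132, 452 and 1022 in DTR, and *Mx2* had 518, 152 and 121 against 265, 174 and 360. Mean levels were alike, at 820 ± 858 and 869 ± 365 for *Mx1* (SD, n = 3 each). The log2 fold changes were 0.08 (SE 0.88) and 0.02 (SE 0.63), and their 95% intervals passed a doubling in both directions. *Mx1* had the widest WT range of the 38 genes, with a ratio of 5.79 between the highest and the lowest library. Without WT replicate 1, the log2 fold changes of *Mx1* and *Mx2* were 1.42 and 0.97.

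Together, the 17 tested GTPase genes had 8 fitted lower and 9 higher, with a median log2 fold change of 0.02 (0.03 without *Gbp10*) and a range from -3.25 to 0.19. The 21 other genes had 4 fitted lower and 17 higher and a median of 0.15. The corresponding median over all tested genes was 0.01. Among the 16 tested GTPase genes other than *Gbp10* the range was -0.62 to 0.19.

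**Figure D4:**
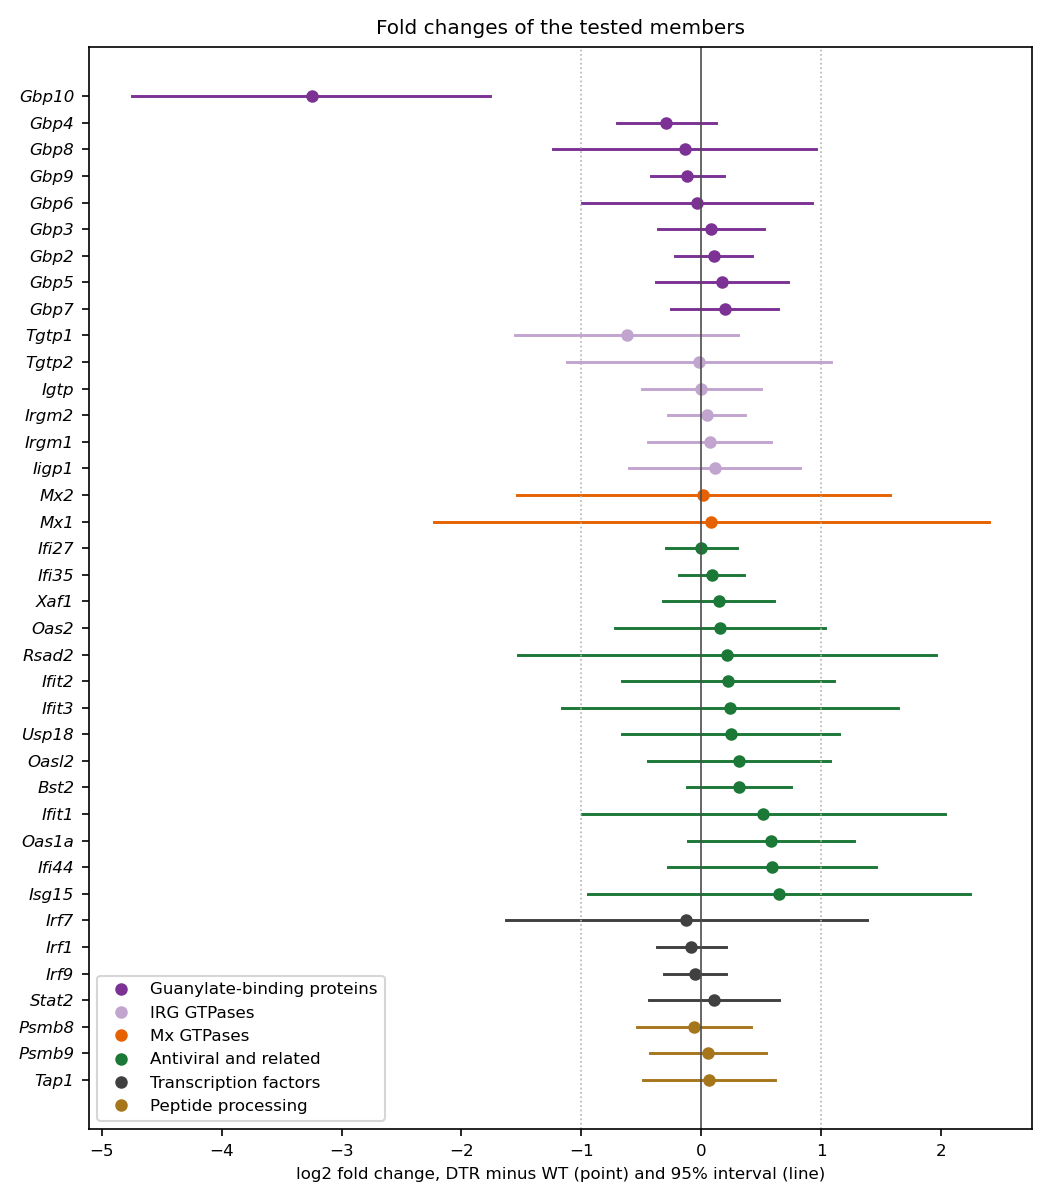
Log2 fold change of DTR against WT (points, x axis) with its 95% interval from the edgeR fit (lines) for the 38 tested genes, coloured by role, with a solid line at 0 and dotted lines at a doubling in either direction. The interval of *Gbp10*, the gene for which the set was chosen in this same contrast, runs from -4.75 to -1.76 (edgeR adjusted p = 0.274). The intervals of the other 37 genes include 0.

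The 14 antiviral and related genes were all fitted higher in DTR, by 0.00 to 0.65 on the log2 scale with a median of 0.24, and in each of them the groups overlapped and edgeR, DESeq2 and limma-voom called 0. *Isg15*, a ubiquitin-like modifier, had 592, 152 and 209 normalized counts in the WT tendons and 758, 309 and 424 in DTR, or 317 ± 239 against 497 ± 233 (SD, n = 3 each). Its log2 fold change of 0.65 (SE 0.63, 95% interval -0.94 to 2.24) was the highest of the 38. *Ifi44*, an interferon-induced gene, had 361, 168 and 159 in WT and 407, 244 and 385 in DTR (0.59, SE 0.37). In both genes every DTR library stood above WT replicates 2 and 3, while WT replicate 1 lay among the DTR libraries.

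*Oas1a*, which makes an activator of RNase L on sensing double-stranded RNA, had 251, 159 and 143 normalized counts in the WT tendons and 370, 236 and 220 in DTR (log2 fold change 0.58, SE 0.30). *Ifit1*, which binds viral RNA lacking a host cap, had 1907, 593 and 510 in WT and 1591, 1218 and 1503 in DTR (0.52, SE 0.58). WT replicate 1 again exceeded at least 1 DTR library in each. The other 10 genes of the group (*Ifit2*, *Ifit3*, *Oas2*, *Oasl2*, *Usp18*, *Rsad2*, *Bst2*, *Xaf1*, *Ifi27* and *Ifi35*) ranged from 0.00 for *Ifi27* to 0.31 for *Oasl2* and *Bst2*. *Rsad2*, which encodes viperin, had the widest range of these in WT, with a ratio of 4.38 between libraries, and *Ifi35* the narrowest, with 1.27.

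Median log2 fold changes varied in size and in sign with the WT library left out. Without WT replicate 1, the median log2 fold change was 0.62 over the 21 other genes (0.15 with all libraries) and 0.34 over the 17 GTPase genes (0.02), and 33 of the 38 genes were fitted higher. Every DTR library then lay above both remaining WT libraries in 21 of the 38 genes, against 13.3% of all genes tested, among them *Gbp2*, *Gbp3*, *Gbp5*, *Mx1*, *Ifit1*, *Isg15* and *Irf7*. Even so, edgeR's adjusted test called 0 of the 38 and 0 of all genes, with 16 of the 38 at an unadjusted p under 0.05, where the share of all genes was 7.51%. WT replicate 1 had been picked out for its high values in these same genes, so a rise without it was built in. No result is read from the counts without WT replicate 1. Leaving out WT replicate 2 or WT replicate 3 moved the balance the other way, with 15 and 16 of the 38 genes fitted higher. The median was then -0.02 and 0.05 over the 21 other genes, and -0.06 and -0.23 over the 17 GTPase genes. Without WT replicate 3, *Gbp4*, *Gbp9*, *Gbp10* and *Tgtp1* had every DTR library below both WT libraries (17.0% of all genes).

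Among the transcription factors, *Stat2* and *Irf9* act in the response to type I interferon, *Irf1* acts downstream of interferon gamma and *Irf7* amplifies type I interferon production. *Irf7* had 2884, 884 and 993 normalized counts in the WT tendons and 2010, 1059 and 1288 in DTR (log2 fold change -0.13, SE 0.58), and varied between animals as the Mx genes did. *Stat2* gave 2969, 2202 and 2002 in WT and 2609, 1919 and 3209 in DTR (0.11, SE 0.23). *Irf1* gave 1979, 1552 and 1565 against 1649, 1454 and 1712 (-0.08, SE 0.12), and *Irf9* 2086, 1802 and 1700 against 1752, 1658 and 1985 (-0.05, SE 0.11). *Irf1* and *Irf9* were the steady ones, with 95% intervals of -0.37 to 0.20 and -0.31 to 0.21.

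Genes of peptide processing for MHC class I followed. *Psmb8*, an immunoproteasome subunit, had 1853, 1049 and 1294 normalized counts in the WT tendons and 1446, 1251 and 1331 in DTR (log2 fold change -0.06, SE 0.20). *Psmb9*, a second subunit, had 475, 278 and 366 in WT and 401, 356 and 409 in DTR (0.06, SE 0.21). *Tap1*, a subunit of the transporter that moves peptides into the endoplasmic reticulum, had 1593, 1008 and 956 in WT and 1426, 993 and 1290 in DTR (0.06, SE 0.23). All DTR libraries lay within the WT range in each of the 3, and each 95% interval excluded a doubling.

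Levels were compared between genes per kilobase of merged exons (GENCODE vM21). The highest WT levels were 1660 normalized counts per kb for *Ifi27*, 1400 for *Bst2*, 880 for *Ifit3* and 793 for *Gbp2*. The lowest of the 38 were 23.9 for *Gbp10*, 17.8 for *Gbp8*, 14.7 for *Gbp6* and 13.8 for *Tgtp1*, and in DTR *Gbp10* was the lowest of all, at 2.47. These lengths include the bases that *Gm43302* covers in *Gbp10* and *Gbp6*, so the place of both genes in this order is uncertain.

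Other genes of the pathway were read in a list of 110, of which 99 were tested. Of the ligands, *Ifng* had 12, 3 and 4 raw counts in WT and 1, 6 and 1 in DTR, and *Ifnb1* 0, 0 and 1 against 0, 1 and 4. The other 8 ligands (*Ifna1*, *Ifna2*, *Ifna4*, *Ifna5*, *Ifnk*, *Ifne*, *Ifnl2* and *Ifnl3*) were at 0 in every library, so no ligand was measured well enough to compare at this depth.

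Of the 6 tested receptor genes 5 were fitted higher and 1 lower. *Ifngr2*, a chain of the interferon gamma receptor, had 3085, 3086 and 3033 normalized counts in the WT tendons and 4042, 3690 and 3399 in DTR, without overlap (log2 fold change 0.27, SE 0.09, edgeR adjusted p = 0.371). *Ifngr1*, its partner, gave 5035, 4774 and 5569 against 5543, 5717 and 4882 (0.07, SE 0.10, edgeR adjusted p = 0.820). *Ifnar1* and *Ifnar2*, the type I receptor, had log2 fold changes of 0.19 (SE 0.10) and 0.02 (SE 0.11), and their groups overlapped. *Ifnlr1*, a chain of the type III receptor with a mean under 50 normalized counts and picked after its values were seen, had the widest WT range of the 6, with 95.4, 38.6 and 22.9 in WT and 29.9, 16.3 and 44.2 in DTR (-0.80, SE 0.59). The kinases *Jak1*, *Jak2* and *Tyk2* had 0.10 (SE 0.13), 0.04 (SE 0.09) and -0.03 (SE 0.09). *Socs1*, an inhibitor of JAK kinases, had 272, 380 and 358 in WT and 425, 188 and 265 in DTR (-0.20, SE 0.30).

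Among the pathway genes that averaged at least 50 normalized counts, those with the largest fold changes in each direction were as follows. *F830016B08Rik*, an interferon-inducible GTPase gene related to *Iigp1*, had 263, 289 and 163 normalized counts in the WT tendons and 108, 153 and 84.3 in DTR, without overlap (log2 fold change -1.05, SE 0.31, edgeR adjusted p = 0.354, DESeq2 adjusted p = 0.0355). *Ciita*, the master regulator of MHC class II genes, had 798, 511 and 476 in WT and 439, 321 and 455 in DTR, also without overlap (-0.56, SE 0.23, edgeR adjusted p = 0.453). *Tlr9*, a sensor of unmethylated DNA, was next with -0.30 (SE 0.30). On the other side, *Apol9a* had 139, 72.5 and 84.2 in WT and 188, 134 and 157 in DTR (0.69, SE 0.30, edgeR adjusted p = 0.459). *Cxcl9*, a chemokine that attracts T cells, had 352, 83.8 and 125 against 381, 118 and 377 (0.64, SE 0.70), and *Ifitm1*, which restricts viral entry, 247, 194 and 234 against 607, 216 and 196 (0.60, SE 0.45). WT replicate 1 overlapped DTR in *Apol9a* and *Cxcl9*, and DTR replicate 1 alone carried *Ifitm1*.

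Of the 99 tested pathway genes, 26 were fitted lower and 73 higher, with a median log2 fold change of 0.10. edgeR's adjusted test called 0 (0% of all genes), with 2 lower and 6 higher at an unadjusted p under 0.05 (5.45% and 5.52% of all genes). DESeq2 called 1 lower and 0 higher (1.53% and 1.12% of all genes), and limma-voom called 0 (0%). Groups did not overlap in 2 genes that were lower and 5 that were higher (7.85% and 8.96% of all genes). No result about the pathway is read from these counts.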

How the data were processed

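FDL tendon RNA (200 ng total, 1 tendon per library) was sequenced as single-end reads. The TruSeq Stranded kit is named in the paper, and the labels add a SMARTER kit. The authors used FastP to clean the reads and featureCounts to count them by gene, and deposited whole-number raw counts. A second table deposited by the authors holds a signal, the counts normalized with DESeq2 (1.22.1 per the labels). Each of its columns was the count column divided by 1 constant (0.973 to 1.06): 100% of its values came out as whole reads (tolerance 0.01 reads), and edgeR called 0 genes on those reads. The aligner, genome build, annotation, strand setting and treatment of reads matching several genes are not given in the sources used here, so overlapping and antisense genes are uncertain. Rows of the tables were matched by symbol, and 0 columns of other samples were present.

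The fits were run with R 4.3.3 and edgeR 4.0.16 (filterByExpr, TMM, robust quasi-likelihood fit, genotype as the single term, Benjamini-Hochberg over all genes tested, threshold 0.05), with DESeq2 1.42.0 and limma 3.58.1 voom as alternatives. Normalized counts are divided by the TMM effective library size and scaled to the mean library size after the filter. Depth was 42744138 to 48854310 counts per library. Replicates differed by 36.6 to 190 chi-square units per degree of freedom, so none was counted as a duplicate. The p-values measure the spread between 3 animals per group. The scripts were run on simulated counts with known changes. These were drawn independently for each gene, so a shift shared by many genes in a library was not covered.

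Members and gene lists were chosen with earlier results of these data known. Library values are given for every GTPase, transcription factor and peptide processing gene that averaged at least 50 normalized counts, and for the other members with an absolute log2 fold change of at least 0.5 or without overlap. Of the other pathway genes, all ligands, the preset receptor and signalling genes and the 3 largest changes in each direction with a mean of at least 50 were named. A gene of that rule is not reported here by its values. Coding sequences and exons came from GENCODE vM21 (GRCm38), promoters and gene order from RefSeq (GRCm38.p6). Alternatives were other tools, scalings and filters, a replicate block, a skeletal muscle covariate, sums of near-identical genes and each library left out.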

Additional observations from a re-analysis of the deposited data

How the results depend on the processing

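Over RLE, upper quartile and library size scaling, limma-voom, no filter on low counts and the deposited normalized values turned back into reads, 0 members and 0 other pathway genes were called. Without a filter, 38 genes were called lower and 45 higher over all genes, where 0 were called with it. DESeq2 called 1 member (*Gbp10*) and 1 pathway gene (*F830016B08Rik*). A minimum of 10 counts in every library removed *Gbp10*, so it has no value there, and 0 members were then without overlap. With skeletal muscle level as a covariate, 24 members were fitted lower and *Gbp10* had a log2 fold change of -2.27. With *Gbp6* and *Gbp10* summed it was -0.92. Over the libraries left out in turn, 0 to 1 members were called (1 without DTR replicate 2, *Gbp10*, where 441 genes were called lower and 103 higher over all genes), 5 to 23 were fitted lower (5 without WT replicate 1, 23 without WT replicate 2 and 22 without WT replicate 3) and 1 to 4 were lower without overlap (4 without WT replicate 3). The median log2 fold change ranged from -0.23 to 0.34 in GTPase genes, from -0.020 to 0.62 in the other members and from 0.01 to 0.26 in the pathway genes, with 0 of the latter called throughout, and that of *Gbp10* from -3.76 to -2.69. The causes were not tested.

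Same-numbered libraries did not deviate together (correlations of -0.19, -0.15 and -0.68 between their deviations from the group means). No pairing by number was evident, though so few libraries per group cannot exclude it. With the replicate number as a block, 0 members were called, 8 were fitted lower and *Gbp10* was at -3.13, and 1 gene was called lower over all genes.

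Of 794 values of single genes under these settings, 783 moved by less than the spread between replicates and 11 moved by more. *Ifit1*, *Rsad2* and *Irf7* were at 1.38, 1.23 and 0.63 without WT replicate 1, and *Ifitm1* at -0.13 without DTR replicate 1. With the muscle covariate *Cxcl9* turned from 0.64 to -0.38 and *Ifitm1* from 0.60 to -0.22, while *Socs1* was at -0.89 and *Ifnar1* at 0.03. Sums of members with over 90% identity of protein sequence were not run. With coding identity in its place, an alternative added on seeing the data, the 6 genes *Gbp4*, *Gbp6*, *Gbp8*, *Gbp9*, *Gbp10* and *Gbp11* summed to a log2 fold change of -0.23 (SE 0.15), and the median of the GTPase genes was 0.07. Low counts limit *Gbp11* and the ligands, and the number of animals limits every comparison.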

Other observations

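The 14 tested genes that sense nucleic acids or relay that signal had 5 fitted lower and 9 higher, with a median log2 fold change of 0.12. edgeR's adjusted test called 0 (0% of all genes), with 0 lower and 2 higher at an unadjusted p under 0.05 (5.45% and 5.52% of all genes). DESeq2 (1.53% of all genes lower and 1.12% higher) and limma-voom (0%) also called 0. Those 2 genes and *Eif2ak2* were picked after their values were seen, for their fold changes upward. *Eif2ak2*, the kinase PKR that halts translation on double-stranded RNA, had 2340, 1916 and 1829 normalized counts in the WT tendons and 2929, 2349 and 2590 in DTR (log2 fold change 0.37, SE 0.13, edgeR adjusted p = 0.394). *Sting1*, the adaptor of cytosolic DNA sensing, had 3922, 2906 and 3397 in WT and 4695, 3759 and 4949 in DTR (0.39, SE 0.14, edgeR adjusted p = 0.422), and *Ddx58*, which encodes the RNA sensor RIG-I, had 2309, 1912 and 1848 against 2850, 2110 and 2649 (0.33, SE 0.14, edgeR adjusted p = 0.453). Groups did not overlap in *Eif2ak2* (8.96% of all genes were higher without overlap), by a margin of 2349 in DTR replicate 2 against 2340 in WT replicate 1. WT replicate 1 lay among the DTR libraries in *Sting1* and *Ddx58*. None of the 3 passed the adjusted threshold.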
